A study of Mus musculus with 10 samples.

Results

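Human estrogen receptor positive breast cancer cells growing as axillary lymph node metastases were compared with the same cells growing as primary mammary gland tumors, in mice that kept their estrogen pellet. The comparison used 5 of the 10 arrays in the series, chosen by the labelled site, treatment and mouse number. Lymph node metastases came from mice 6, 11 and 14, and primary tumors came from mice 11 and 14, so 2 of the 3 mice gave both sites. The hosts were female nu/nu mice, an athymic strain that lacks most T cells, aged 20 weeks. All 6 mice of the series received estrogen pellets. The other 5 arrays, used here for the estimate of spread and for 1 side comparison, came from mice whose pellet had been taken out for 1 week, with lymph nodes of mice 9, 10 and 19 and primary tumors of mice 10 and 19. Cells were cut from frozen sections by laser capture, and their RNA was amplified by PCR and labelled with biotin. The labels name the mouse as the organism and the cells as human breast cancer cells without naming a line, and the arrays carry human probe sets.

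Breast cancer commonly spreads first to the axillary nodes, where tumor cells meet lymphocytes, lymphatic endothelium and a matrix unlike that of the mammary fat pad. In estrogen receptor positive cells, estrogen binds the receptor encoded by ESR1 and drives genes of growth such as GREB1, MYC and CCND1. Growth factor receptors such as EGFR and FGFR1 signal beside it, chemokine receptors such as CXCR4 and CCR7 guide cells to nodes, and interferons switch on a shared set of antiviral and antigen presentation genes.

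Values are log2 signals, so that 1 unit is a doubling, after quantile normalization, which gives all 10 arrays the same distribution. Lymph node values are given in the order of mice 6, 11 and 14, and primary tumor values in the order of mice 11 and 14. The lymph node of mouse 11 stood apart. Across genes it correlated with the nodes of mice 6 and 14 at r = 0.935 and 0.891, where those 2 nodes correlated at 0.977 with each other and the 2 primary tumors at 0.974. Its bacterial and phage hybridization controls had a mean deposited value of 12.04, against 9.62 to 10.59 on the other 4 arrays with estrogen. The 2 primary tumor arrays had a narrower range before normalization, with 99th percentiles of 9.44 and 10.04 against 11.39 to 11.65 in the nodes. The GAPDH 3′ minus 5′ difference, a measure of RNA quality and amplification, was 3.90, 4.33 and 4.17 in the nodes and 3.15 and 3.73 in the tumors. The 30 luminal epithelial genes tested had array means of 8.03 to 8.41, whereas those of T and NK cell markers were 3.24 to 3.59, of B cell markers 3.04 to 3.41 and of myeloid markers 2.77 to 3.24, so all 5 arrays carried the epithelial genes and human immune markers were near the bottom of the range.

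Of 17167 genes tested by limma with Benjamini-Hochberg adjustment, 87 passed an adjusted p of 0.05 (0.507%), and most were lower in the lymph nodes. These are the genes termed called. There were 71 lower (0.414%) and 16 higher (0.0932%), with a smallest adjusted p of 0.000888. The lower genes were far apart, with a median difference of −4.74 (−7.93 to −1.42), and included the growth factor receptors EGFR and FGFR1, the Notch ligand JAG2 and the chemokines CX3CL1 and CXCL14. The higher genes were closer, with a median of 1.75 (1.46 to 2.59), and included the peroxisomal transporter ABCD3 and several RNA-processing genes. All 87 had groups that did not overlap, a property shared by 4785 of all genes (27.9%). At an unadjusted p of 0.05, 963 genes (5.61%) were higher and 1126 (6.56%) lower. Because an array reads a whole captured sample, fewer cells of a type and less RNA per cell cannot be told apart.

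The number of genes called and the share of them higher in the nodes depended on the scale, and the number depended on single arrays too. On the deposited scale, where both primary tumor arrays had the narrower range, 1341 genes were called higher and 163 lower (89.2% higher), and median and MAD scaling gave 1408 and 161 (89.7%). Quantile normalization gave 18.4% higher, and cyclic loess gave 1 higher and 36 lower (2.70%). The median over all genes was 0.02 after quantile normalization, 0.26 as deposited and 0.32 with MAD scaling. Of the 87 genes, 80 were also called as deposited, 81 with MAD scaling and 37 with cyclic loess, and 85 kept their sign under each of these 3. The size of their differences depended on the scale. Their median absolute difference was 4.19 after quantile normalization, 3.00 as deposited, 2.93 with MAD scaling and 3.68 with cyclic loess. Without the lymph node of mouse 11 the count was 471, with 190 higher (1.11%) and 281 lower (1.64%), and all 87 were among them. Without the lymph node of mouse 6 it was 24, without the primary tumor of mouse 11 it was 39, and without the withdrawn node of mouse 10 or either withdrawn primary tumor it was 31. With 5 arrays in the fit, and so less information on spread, limma called 0, with 1490 genes at an unadjusted p of 0.05.

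Within mice, the called genes agreed in direction where most genes did not. Lymph node minus primary tumor had the same sign in mice 11 and 14 for all 87 called genes, but for 44.3% of all genes. Across all genes the 2 within-mouse differences had r = −0.0039, a description over genes, which are not independent. In both mice 39 of the 71 lower genes were over 4 log2 units apart, and all 16 higher genes were over 1 unit apart. Since the fit used both mice, this agreement describes the calls and is no separate test of them.

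**Figure D1:**
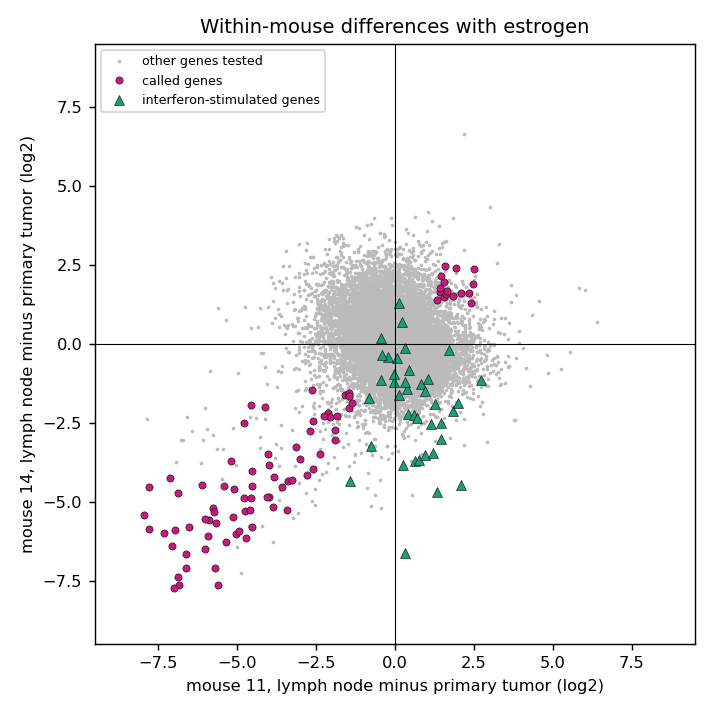
Lymph node minus primary tumor (log2) in mouse 11 on the x axis and in mouse 14 on the y axis, with 1 point per gene tested. The 87 called genes (magenta circles) lie in the lower left and upper right corners, the cloud of all other genes (grey) has no slope, and the 39 interferon-stimulated genes (green triangles) lie mostly below 0 in mouse 14 and near or above 0 in mouse 11.

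Growth factor receptors were among the largest differences, EGFR on a pair of its 8 probe sets and FGFR1 on 1 of its 8. EGFR, the epidermal growth factor receptor, was at 4.39, 6.87 and 4.90 in the lymph nodes and at 13.72 and 12.52 in the primary tumors. Both tumors were near the top of the array's range and all 3 nodes lay far below them, with mouse 11 the highest node (−7.76 ± 1.01 SE, adjusted p = 0.0159). FGFR1, a fibroblast growth factor receptor, was at 4.81, 6.32 and 4.73 against 12.95 and 11.40. Its groups did not overlap either (−6.90 ± 0.72, adjusted p = 0.00462). Of 36 receptor tyrosine kinase genes tested these 2 were called lower and 0 higher, beside 0.414% and 0.0932% of all genes. The list's median was −0.10 beside 0.02 for all genes. IGF1R, the receptor for insulin-like growth factors, had 4.42, 4.64 and 4.26 against 5.56 and 5.20 and was not called (−0.94, adjusted p = 0.244), although all 5 of its probe sets had that sign.

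JAG2, NDRG3, PTPRA and JAK3 were also called lower in the nodes, each on the probe set used. JAG2, a Notch ligand, was at 7.24, 8.26 and 6.83 in the nodes and at 13.30 and 12.84 in the tumors (−5.63 ± 0.53, adjusted p = 0.00269), while its other 3 probe sets had 0.09 to 0.74. NDRG3, of the N-myc downstream regulated family, was at 5.70, 6.42 and 5.82 against 12.29 and 11.41 (−5.88 ± 0.42, adjusted p = 0.000888). Both tumors were far above every node on this probe set of NDRG3, whose other one had 0.40, while NDRG1, NDRG2 and NDRG4 differed by 0.03 to 0.27 and were not called. PTPRA, a receptor-type tyrosine phosphatase, was at 5.75, 7.01 and 5.62 against 12.93 and 11.70, and JAK3, a kinase of cytokine receptors, was at 6.58, 7.70 and 5.88 against 12.66 and 11.81. The differences were −6.20 for PTPRA, with 7 of 9 probe sets negative, and −5.51 for JAK3, with 2 of 5 negative and the other 4 at −0.02 to 0.31.

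The chemokines CX3CL1 and CXCL14 were the called members among 28 chemokine and chemokine receptor genes tested, both lower in the nodes. Of all genes 0.414% were called lower. CXCL14 was at 2.62, 3.77 and 2.21 in the nodes and at 7.35 and 6.76 in the tumors (−4.19 ± 0.43, adjusted p = 0.00462). This was seen by 1 of its 3 probe sets, and those not used had −0.28 and −0.10. CX3CL1, the membrane-bound ligand of CX3CR1, was at 2.60, 3.41 and 3.01 against 6.41 and 6.66 (−3.54 ± 0.35, adjusted p = 0.00325). The nodes were at the bottom of the range for both genes, and the tumors were at a middle level. CXCR4, the receptor that guides cells toward CXCL12, ran the other way, at 6.08, 5.68 and 7.96 in the nodes and 4.51 and 4.07 in the tumors. Its groups did not overlap, a property of 27.9% of all genes, but it was not called (2.27, adjusted p = 0.247). The other 3 of its 4 probe sets had −0.80 to −0.17. CCR7, a homing receptor of lymphocytes and some tumor cells, had 2.47, 3.32 and 2.80 against 2.72 and 2.55 and showed no separation of the groups (0.22, adjusted p = 0.843). ACKR3, a scavenging receptor for CXCL12, had 4.67, 4.49 and 5.55 against 6.90 and 6.38 and was not called (−1.74, adjusted p = 0.176).

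Other called genes of known role had a variety of functions. GPX3, a secreted glutathione peroxidase, was at 5.69, 7.28 and 4.27 in the nodes and 12.63 and 10.55 in the tumors (−5.85). SLC1A2, a glutamate transporter, was at 7.65, 9.27 and 7.16 against 13.31 and 12.004 (−4.64). CARD16, an inhibitor of caspase-1 activation, was at 3.84, 5.94 and 4.35 against 12.82 and 11.75 (−7.60). In each of these 3 genes the node of mouse 11 was the highest node and still lay below both tumors. MUC5AC, a gel-forming mucin, was at 3.54, 4.18 and 3.99 against 8.69 and 8.48 (−4.69). CENPN, a centromere protein, was at 7.97, 8.03 and 7.27 against 13.12 and 11.87 (−4.74). PLAU, the urokinase that activates plasminogen, was at 2.97, 3.35 and 3.47 against 5.59 and 5.75 (−2.42 ± 0.33, adjusted p = 0.0193). PIGR, which carries polymeric immunoglobulin across epithelium, was at 4.06, 4.82 and 4.31 against 11.69 and 9.03 (−5.97). The probe sets not used had −0.42 to 0.16 for CARD16, −0.06 to 0.96 for SLC1A2, −0.12 and −0.02 for PIGR and 0.21 for PLAU. For MUC5AC and CENPN 1 other probe set had −4.36 and −4.67, and GPX3 had 1 probe set only.

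Among the 15 most negative differences were also pseudogenes and antisense, divergent or long noncoding transcripts. SLC38A2-AS1, antisense to an amino acid transporter gene, was at 3.47, 4.86 and 3.98 in the nodes and at 10.87 and 10.49 in the tumors (−6.60 ± 0.40, adjusted p = 0.000888). The olfactory receptor pseudogenes OR7E2P (−7.93) and OR7E85BP (−6.81), the RNA polymerase pseudogene POLR2J4 (−7.05), CTBP1-DT (−6.70), MYCNOS, antisense to MYCN (−6.55), and GHET1 (−6.42) were of the same size. The probe sets used for OR7E2P and OR7E85BP have the same name but for the suffix, _at and _x_at. Whether they read separate transcripts was not tested, and the other probe set of OR7E2P had −0.05. CFAP157 (−6.93), the RNA helicase DDX28 (−6.90), the homeobox gene VSX1 (−6.88), the RNA methyltransferase METTL2B (−6.69) and the cyclin CCNQ (−6.39) complete the 15. By symbol, 9 of the 71 lower genes (12.7%) began with LINC or LOC or ended in AS, with or without a number, or DT. Of all genes tested, 1343 did (7.82%). Such symbols name long noncoding, uncharacterized, antisense or divergent loci, but others such as MYCNOS and GHET1 are not counted. That count was made after the values were seen and was not tested. The median level of the 71 genes was 4.64, 5.94 and 4.79 on the node arrays and 11.7 and 10.2 on the tumor arrays, and 45 of them had a tumor mean over 10.

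**Figure D2:**
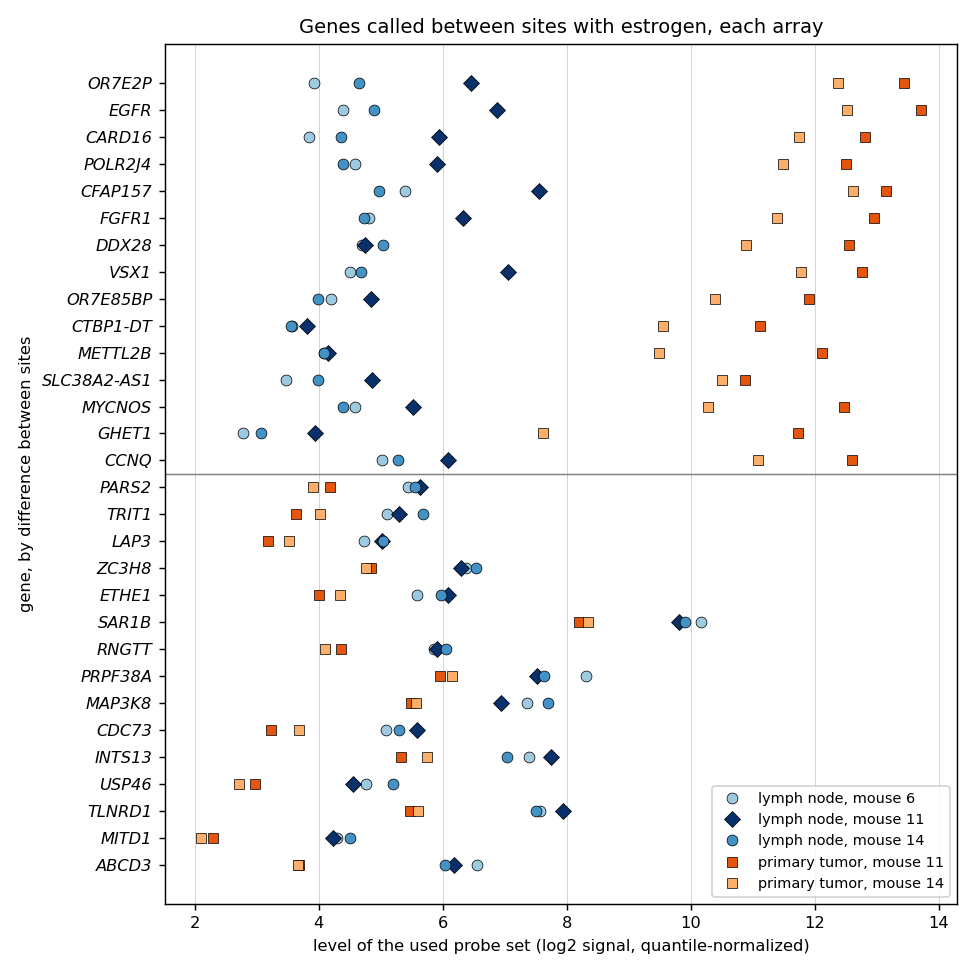
Level of the used probe set (log2 signal, quantile-normalized, x axis) on each array with estrogen for the 15 most negative (upper block) and 15 most positive (lower block) differences among called genes. In the upper block both primary tumors (squares) lie to the right of all 3 lymph nodes (circles, and a diamond for mouse 11), and in the lower block they lie to the left.

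For most called genes the difference was seen by 1 probe set and not by the gene's others. Of the 71 lower genes, 63 had further probe sets, 182 in all. Of these 182, 14 were more than 1 log2 unit lower in the nodes, 88 had a negative sign of any size, and the median over genes of their median difference was −0.01. In 14 of the 63 genes some other probe set was over 1 unit lower, and in 3 of the 63 every other one was. EGFR was seen by a pair of its 8 probe sets, with the second at −7.75 and the other 6 at −0.96 to 0.09. FGFR1 was seen by 1 of its 8 (others −0.81 to 0.50), NDRG3 by 1 of 2 (other 0.40), JAG2 by 1 of 4 (others 0.09 to 0.74) and SLC38A2-AS1 by 1 of 2 (other 0.16). LRRC25 was seen by both of its probe sets (−5.66 and −7.29), as were WTIP, a scaffold protein (−5.86 and −4.21), and METTL2B (−6.69 and −3.11). CTBP1-DT, CENPN, MUC5AC and LINC03040 had 1 other probe set at −5.29, −4.67, −4.36 and −4.08. Of the 16 higher genes, 8 had further probe sets, and in 3 of these, PRPF38A, SAR1B and USP46, another was over 1 unit higher. Taking the second highest probe set of each gene, limma called 20 genes, of which 5 were among the 87 (EGFR, LRRC25, CENPN, MUC5AC and LINC03040). Taking the mean of all probe sets it called 41, of which 37 were among the 87. Why probe sets of a gene differed was not tested.

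**Figure D3:**
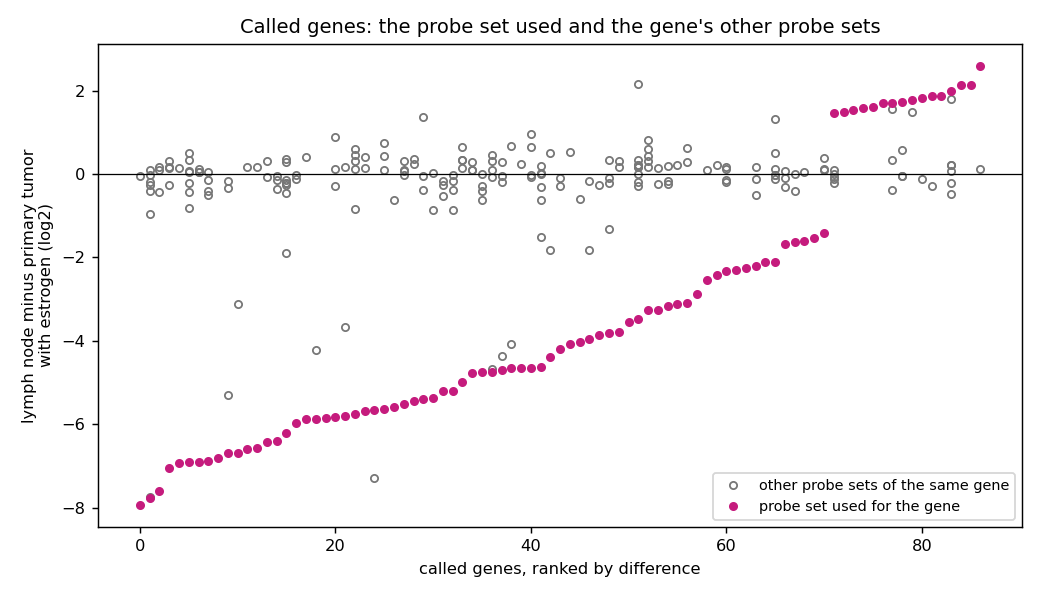
Lymph node minus primary tumor with estrogen (log2, y axis) for the 87 called genes, ranked by difference on the x axis, with the probe set used for each gene (filled) and the gene's other probe sets (open). Most open circles lie near 0 whatever the value of the filled one, and a few, such as probe sets of LRRC25 at −7.29 and CTBP1-DT at −5.29, lie with it.

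The 16 genes called higher in the lymph nodes had smaller differences, and none of them was called with mouse as a fixed block, a fit that called 27 genes, all lower. ABCD3, a transporter of the peroxisomal membrane, was at 6.55, 6.19 and 6.03 in the nodes and at 3.69 and 3.66 in the tumors (2.59 ± 0.35, adjusted p = 0.0193). MITD1, which acts in the last step of cell division, was at 4.29, 4.23 and 4.51 against 2.30 and 2.10 (2.14). TLNRD1, an actin-bundling protein, was at 7.57, 7.94 and 7.51 against 5.47 and 5.60 (2.13). In these 3 genes the node of mouse 11 lay close to the other nodes, and both tumors lay below all of them. USP46, a deubiquitinase, had 4.77, 4.55 and 5.19 against 2.98 and 2.72 (1.99). It had 7 probe sets, and those not used ranged from −0.49 to 1.80 with a median of 0.14. SAR1B, a GTPase of vesicle export from the endoplasmic reticulum, was at 10.16, 9.80 and 9.90 against 8.20 and 8.34 (1.70). The probe sets of SAR1B not used had −0.38 to 1.57 with a median of 0.33. The splicing factor PRPF38A (1.78, second probe set 1.49), the Integrator subunit INTS13 (1.86), the PAF1 complex subunit CDC73 (1.86), the mRNA capping enzyme RNGTT (1.72) and ZC3H8 (1.59) act in transcription or RNA processing, and TRIT1 (1.52) and PARS2 (1.49) act on transfer RNA. MAP3K8, a kinase of inflammatory signalling (1.81), the mitochondrial sulfur dioxygenase ETHE1 (1.69), the aminopeptidase LAP3 (1.57) and TASOR2 (1.46) were the others. The probe set not used had 0.12 for ABCD3, −0.28 for CDC73 and −0.11 for MAP3K8. Those not used had −0.05 to 0.57 for RNGTT and −0.21 to 0.10 for TASOR2. None of the 38 gene lists described here had a called higher member. In the 10 fits that each left out 1 array, 22 genes were called every time and all 22 were lower genes, among them FGFR1, JAG2, NDRG3, SLC38A2-AS1, CX3CL1, CXCL14, MUC5AC and CENPN. EGFR was not among the 22.

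Interferon-stimulated genes separated the lymph node of mouse 11 from the other nodes. The mean of the 39 genes tested was 5.03, 8.32 and 5.47 in the nodes and 7.72 and 7.44 in the tumors. The nodes of mice 6 and 14 were low, the node of mouse 11 was above both tumors, and the groups overlapped. The list's median difference was −1.11 with 34 of 39 negative, but it was 0.44 within mouse 11 and −1.70 within mouse 14. With all arrays 0 of the 39 were called, and 3 were lower at an unadjusted p below 0.05, as were 6.56% of all genes. IFIT3, an antiviral RNA-binding protein, was at 3.07, 9.92 and 2.54 in the nodes and 9.61 and 9.16 in the tumors (−4.26, adjusted p = 0.403). IFI44 was at 2.20, 6.88 and 4.01 against 8.29 and 8.35 (−4.02, adjusted p = 0.248), and IFI44L at 1.89, 5.10 and 2.32 against 5.85 and 5.56 (−2.63, adjusted p = 0.305). In 36 of the 39 genes the node of mouse 11 was higher than both other nodes.

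Without the node of mouse 11, 14 interferon-stimulated genes were called lower in the nodes and 0 higher, where 1.64% of all genes were called lower, and the list's median was −2.04. IFIT3 then had −6.58, IFI44 −5.21 and IFI44L −3.60, each called. MX2 (−5.45), OAS1 (−4.44), OAS2 (−4.16) and XAF1 (−3.65), named after their values were seen, were called as well. This leaves 2 nodes against 2 tumors, and the choice of the array to leave out was made from these data. The same holds for every call given below without that node. Over all 23 alternatives the list's median stayed negative, from −2.04 to −0.17.

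Antigen presentation genes also had low means in the nodes of mice 6 and 14. The 17 genes of MHC class I and antigen processing had means of 7.30, 8.53 and 7.28 in the nodes and 8.67 and 8.23 in the tumors, and none was called (median −0.36, with 0.32 as deposited and 0.48 with MAD scaling). PSMB9, an interferon-induced proteasome subunit, was at 4.93, 8.40 and 5.13 against 10.23 and 9.08 (−3.53, adjusted p = 0.195). NLRC5, the activator of class I genes, was at 3.04, 8.72 and 4.09 against 9.33 and 8.89 (−3.89, adjusted p = 0.351), and HLA-B at 4.95, 7.47 and 4.97 against 7.66 and 7.39 (−1.75, adjusted p = 0.378). In all 3 the nodes of mice 6 and 14 were low and mouse 11 was near the tumors. Without that node, where 1.64% of all genes were called lower, 5 were called lower, PSMB9 (−4.62), NLRC5 (−5.54), HLA-B (−2.56), HLA-C (−1.81) and HLA-F (−2.54). Human leukocyte markers also had their highest node mean in mouse 11, by smaller amounts. The 17 myeloid markers had means of 2.93, 3.24 and 2.77 in the nodes and 3.20 and 3.20 in the tumors. The 22 T and NK cell markers had 3.24, 3.40 and 3.24 against 3.39 and 3.59, and the 13 B cell markers 3.16, 3.17 and 3.04 against 3.05 and 3.41. The hybridization controls were highest in that node as well among the arrays with estrogen, and the part of either in the interferon and MHC class I values was not tested.

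**Figure D4:**
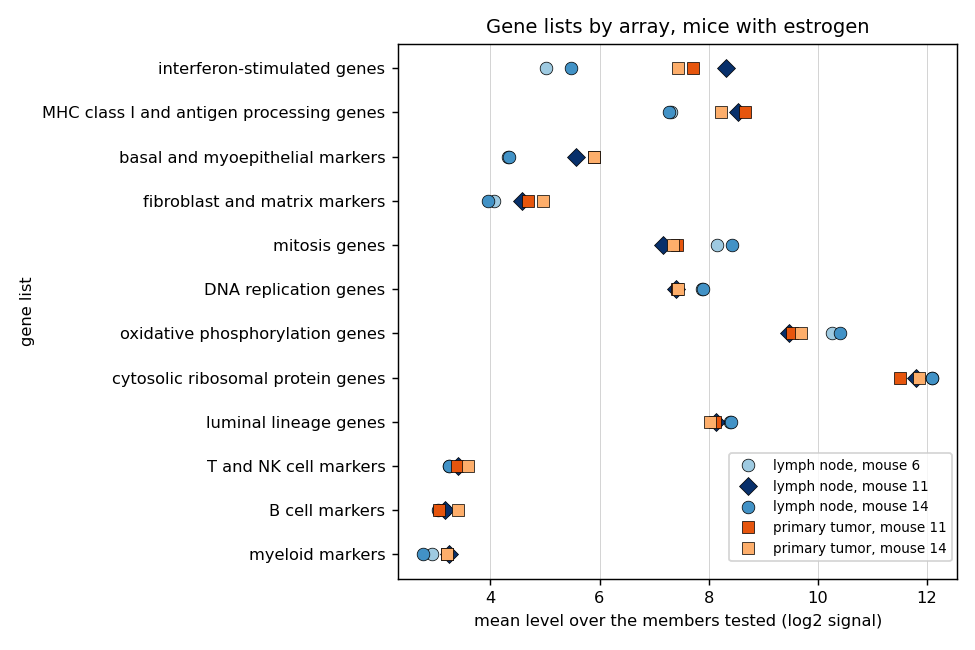
Mean level of the members tested (log2 signal, x axis) of 12 gene lists on each array with estrogen. The lymph node of mouse 11 (dark diamond) lies with the primary tumors (squares) for interferon-stimulated, MHC class I and basal genes and for mitosis and oxidative phosphorylation genes, while the nodes of mice 6 and 14 (circles) lie apart.

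Of the basal and matrix lists, EGFR was the 1 gene called. The 18 basal and myoepithelial markers had means of 4.32, 5.57 and 4.35 in the nodes and 5.89 and 5.90 in the tumors, with 12 of 18 negative and a median of −0.55, which was 0.05 within mouse 11 and −0.87 within mouse 14. KRT5, a basal keratin, was at 3.15, 6.50 and 3.41 against 6.93 and 8.62 (−3.46, adjusted p = 0.236). CAV1, the main protein of caveolae, was at 3.28, 5.43 and 5.11 against 7.54 and 7.60, with both of its probe sets negative (−3.00, adjusted p = 0.107), and CAV2 at 5.96, 6.51 and 7.52 against 8.69 and 8.82 (−2.11, adjusted p = 0.171). The groups did not overlap in these 3 genes, a property of 27.9% of all genes, and none of the 3 was called. All 18 fibroblast and matrix markers tested were negative, with a median of −0.42 and 0 called. At an unadjusted p below 0.05, 4 of them were lower, beside 6.56% of all genes. COL3A1, a fibrillar collagen, was at 2.77, 2.87 and 2.47 in the nodes and 4.42 and 5.29 in the tumors (−2.16, adjusted p = 0.0984), and the proteoglycan BGN at 5.91, 6.28 and 5.46 against 7.26 and 7.59 (−1.54, adjusted p = 0.141). The array means of this list were 3.96 to 4.58 in the nodes and 4.69 and 4.97 in the tumors, all low, and it is the human gene that the probe sets were designed to read. Its median within mouse 11 was −0.06 and within mouse 14 was −0.88, and with the second highest probe sets it was 0.02. Endothelial markers (median −0.05), fat cell markers (−0.11) and skeletal muscle markers (−0.31) had 0 called members and array means of 3.49 to 4.25.

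Among integrins, ITGB5 was at 10.13, 11.30 and 9.66 in the nodes and 13.43 and 13.44 in the tumors (−3.08, adjusted p = 0.087), and ITGB6, an epithelial integrin subunit, was at 3.12, 6.82 and 4.14 against 7.69 and 8.24 (−3.32, adjusted p = 0.257). Both tumors were above every node for these 2 genes, neither of which passed, and 27.9% of all genes had groups without overlap. Both integrins were called without the node of mouse 11 (−3.54 and −4.34), where 1.64% of all genes were called lower. RHOB, a small GTPase induced by stress, had 9.81, 11.11 and 9.09 against 13.63 and 13.00 (−3.32, adjusted p = 0.0675), with 3 of its 7 probe sets negative. BCL2A1, a survival gene of the BCL2 family, had 2.55, 2.94 and 2.71 against 9.70 and 5.76 (−5.00, adjusted p = 0.0763), and so differed more between the 2 tumors than among the nodes. EPCAM and CDH1, the epithelial adhesion genes, had values of 11.3, 10.3 and 11.4 against 10.2 and 9.77 (1.06, adjusted p = 0.307) and 11.1, 10.4 and 10.9 against 10.5 and 10.3 (0.41, adjusted p = 0.589). VIM, a mesenchymal intermediate filament, stayed between 2.13 and 2.47 on the 5 arrays.

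Genes of growth and energy had higher values in the nodes of mice 6 and 14, and none was called with all arrays. The 41 mitosis genes had means of 8.15, 7.16 and 8.43 in the nodes and 7.41 and 7.34 in the tumors, with 32 positive and a median of 0.64. Within mouse 11 this median was −0.25 and within mouse 14 it was 0.83. NEK2, a centrosome kinase, was at 6.78, 5.42 and 6.47 against 4.81 and 4.10 (1.79, adjusted p = 0.368), and NDC80, a kinetochore protein, at 5.97, 3.87 and 6.77 against 3.81 and 3.89 (1.70, adjusted p = 0.429). NDC80 was called without the node of mouse 11 (2.52), where 1.11% of all genes were called higher. MKI67, the proliferation marker, had 8.42, 7.53 and 8.49 against 8.21 and 8.46, with overlapping groups (−0.18, adjusted p = 0.936), and its other 3 probe sets had the opposite sign.

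DNA replication genes (39 tested, median 0.39, 25 positive) had some members with higher values in all 3 nodes. CCNE2, a cyclin of S phase entry, was at 5.21, 4.77 and 5.89 in the nodes and 3.28 and 2.68 in the tumors (2.31, adjusted p = 0.0827). RRM2, a ribonucleotide reductase subunit, was at 11.8, 11.3 and 11.9 against 10.2 and 10.4 (1.34, adjusted p = 0.137), and the origin recognition gene ORC1 at 6.45, 6.13 and 6.31 against 4.99 and 4.49 (1.56, adjusted p = 0.186). These groups did not overlap, a property of 27.9% of all genes, and none of the 3 passed. CCNE2 (2.57) and RRM2 (1.53) were called without the node of mouse 11, where 1.11% of all genes were called higher.

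Oxidative phosphorylation genes were positive in 37 of 42 (median 0.38, array means 10.25, 9.47 and 10.41 against 9.53 and 9.70), with 0.02 within mouse 11 and 0.65 within mouse 14. NDUFB5, a subunit of complex I, was at 7.11, 7.07 and 7.13 against 4.70 and 5.65 (1.93, adjusted p = 0.107). Cytosolic ribosomal protein genes were positive in 39 of 44 (median 0.31), but their median was −0.17 with cyclic loess, so their direction rested on the scaling. Proteasome genes had a median of 0.19, with PSMC6 at 7.62, 7.62 and 7.71 against 6.40 and 5.92 (1.49, adjusted p = 0.117). Unfolded protein response genes (median 0.25), glycolysis and hypoxia-response genes (0.32) and cholesterol and fatty acid synthesis genes (0.33) had 0 called members each. Without the node of mouse 11, where 1.11% of all genes were called higher, the chaperones HSP90B1 (1.75) and HYOU1 (1.22) were called higher. So was EDEM1 (1.87), which directs misfolded proteins to degradation.

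Estrogen response genes did not separate the sites as a group. ESR1 was at 8.92, 5.71 and 9.79 in the nodes and at 9.16 and 9.25 in the tumors, with the node of mouse 11 far below the other 4 arrays (−1.05, adjusted p = 0.759, with 0.15 without that node and 0.17 as deposited). PGR, the progesterone receptor, was between 2.09 and 2.42 on these arrays and was too low to be tested. GREB1, a coactivator induced by estrogen, was at 9.59, 8.10 and 9.68 in the nodes and 11.17 and 11.15 in the tumors (−2.02, adjusted p = 0.281). CCND1 was at 10.3, 10.3 and 10.2 against 11.2 and 11.1 (−0.90, adjusted p = 0.475, but 0.89 as deposited). TFF1 was near the top of the range on all 5 arrays, from 13.2 to 13.9, and MYC had 7.04, 6.50 and 7.24 against 6.09 and 5.90 (0.94, adjusted p = 0.533). After quantile normalization GREB1 and CCND1 thus had higher values in both tumors and MYC in all 3 nodes, with no call. SERPINA1, the alpha-1 antitrypsin gene, had the largest difference of the list by t, at 8.72, 8.89 and 7.62 in the nodes and 5.60 and 4.44 in the tumors (3.40, adjusted p = 0.104, both probe sets positive). Of 51 estrogen-induced genes 32 were positive (median 0.22) and 0 were called, and of 36 estrogen-repressed genes 19 were positive (median 0.08) and 0 were called. Within mouse 11 the induced list had a median of −0.30 and within mouse 14 of 0.07.

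Luminal lineage genes had a median of 0.26, with 20 of 30 positive and 0 called, and 1.43 as deposited. KRT18, a luminal keratin, was at 13.2, 12.2 and 13.2 against 12.8 and 12.7. GATA3, the luminal transcription factor, was at 11.5, 11.0 and 11.3 against 11.4 and 11.6 (−0.22, adjusted p = 0.797), whereas the deposited values gave 1.56 and MAD scaling 1.73. These 2 genes overlapped between sites. ELF3, an epithelial transcription factor, was at 6.38, 6.03 and 6.996 against 9.62 and 7.90, with all 3 probe sets negative (−2.29, adjusted p = 0.112).

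Other lists had medians of −0.17 to 0.24 after quantile normalization. On the deposited scale, where the median of all genes was 0.26, p53 targets had 0.71, epithelial adhesion genes 1.03, glutathione genes 0.90, squamous genes 0.70 and immediate early genes 0.68, so these medians, and the sign of the p53 list, rested on the scaling. TGF-beta, activin and BMP genes had 0.06, with the inhibitor SMAD6 at 6.05, 5.90 and 5.14 in the nodes and 4.24 and 3.72 in the tumors (1.73, adjusted p = 0.0765, 2 of 4 probe sets positive). Wnt and Notch genes had −0.05 with JAG2 called. Amino acid transporters had −0.09 with SLC1A2 called, and SLC43A3 at 3.95, 3.99 and 3.60 against 8.11 and 5.98 was not (−3.20, adjusted p = 0.0555). The mucin, trefoil and anterior gradient list had 0.24 with MUC5AC called lower and MUC1, a luminal surface mucin, at 8.89, 9.12 and 9.21 against 8.28 and 8.23 (0.81, adjusted p = 0.310). Glutathione and antioxidant genes had 0.09 with GPX3 called lower and the peroxiredoxin PRDX2 positive in all 9 of its probe sets (1.14, adjusted p = 0.227). Squamous and cornified envelope genes had 0.05, with UPK2 at 8.63, 9.63 and 7.98 against 6.70 and 7.11 (1.84, adjusted p = 0.129). Growth factor ligands (0.04), immediate early genes (0.23), p53 targets (−0.17), epithelial adhesion genes (0.22) and neuronal genes (−0.15) had 0 called members each, BCL2 family and caspase genes (−0.02) had CARD16, and mesenchymal and invasion genes (−0.13) had PLAU.

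After estrogen withdrawal the same genes differed little between the sites. Limma called 0 genes for lymph node minus primary tumor after withdrawal (smallest adjusted p = 0.206, 1441 at an unadjusted p of 0.05). The 71 genes lower in the nodes with estrogen had a median difference of −0.54 after withdrawal (−2.39 to 0.46), with 59 of 71 negative, and the 16 higher genes had 0.29, with 13 of 16 positive. The median of the 71 gene means was 10.8 in primary tumors with estrogen, 5.23 in lymph nodes with estrogen, 5.69 in primary tumors after withdrawal and 4.75 in lymph nodes after withdrawal, so the tumors with estrogen, on which the genes were chosen, were the group that stood apart. On single arrays the median of the 71 was 5.51 to 5.94 on the 4 arrays with high hybridization controls (12.04 to 12.47), 4.28 to 4.79 on 4 of the 6 others and 10.2 and 11.7 on the primary tumors with estrogen. The part of the hybridization step in these levels was not tested. CXCL14 (−2.39) and CX3CL1 (−1.75) were the lower genes of the chemokine list after withdrawal too, CAV1 had −3.08, SERPINA1 4.04 and CXCR4 2.20, none of them called there.

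The test of whether the site difference changed with estrogen passed 1 gene (0.00583%), with 1094 at an unadjusted p of 0.05. This was SLC38A2-AS1, with −6.60 with estrogen and −0.57 after withdrawal, a difference of −6.03 (adjusted p = 0.0377, and 0.00178 to 0.985 over its alternatives). Its group means after withdrawal were 3.64 in nodes and 4.20 in tumors. It was called in 2 of the 10 fits that left out 1 array, namely without the node of mouse 11 and without the primary tumor of mouse 14, and its other probe set gave 0.11. NDRG3 and CTBP1-DT were next, at −5.63 and −5.81 (adjusted p = 0.0516 for both). For the other 86 called genes a difference between the estrogen states was thus not shown, whatever the sizes side by side. Without the node of mouse 11 this test called 38 genes, and without the primary tumor of mouse 14 it called 35.

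**Figure D5:**
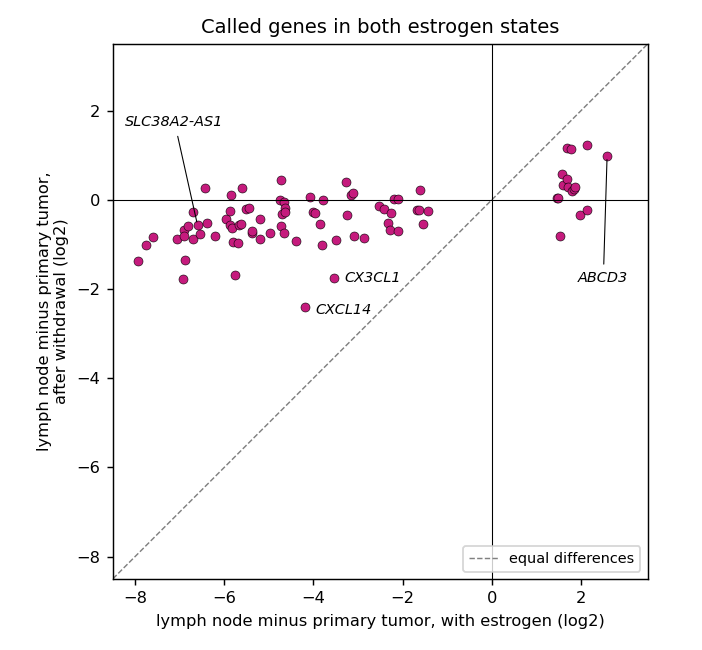
Lymph node minus primary tumor (log2) with estrogen on the x axis and after withdrawal on the y axis for the 87 called genes, with a dashed line of equal differences. The genes lie near 0 on the y axis, between −2.39 and 1.24, while they reach from −7.93 to 2.59 on the x axis, along which they were chosen.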

How the data were processed

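The authors deposited log2 signals of 61359 probe sets on each array, made with Partek and RMA according to the submitters' processing notes, whose versions are not given in the sources used here. GEO's array annotation named 44532 probe sets with 1 symbol, 1492 with several and left 15273 unnamed, besides 62 controls. The values were quantile-normalized across the 10 arrays. Each of 19556 genes was represented by its probe set with the highest mean, and genes below the 25th percentile of probe set means (2.31) were removed, 2389 in all, which left 17167. Limma 3.58.1 in R 4.3.3 fitted 1 mean per group over all 10 arrays, with mouse as a random block (consensus correlation −0.0565, 6 residual degrees of freedom), and p-values were adjusted by Benjamini-Hochberg over all genes tested in each of 3 comparisons. Mouse numbers in the labels pair the sites. Deviations from group means of the 2 sites of a mouse correlated across genes at −0.200 (mouse 14) to 0.175 (mouse 10). The fit was tested on simulated data. The members, the 38 gene lists (1209 genes) and the tests were chosen with earlier results of these data known. Named genes were the 15 most positive and 15 most negative called genes without overlap and with 1 sign in both mice, called members and up to 4 members by moderated t of each list, and genes of interest. Other called genes are named from the full list of calls. The p-values measure the spread between arrays within groups, pooled over all 10 arrays, those after withdrawal included. With a single capture per mouse and site, spread between mice cannot be told apart from that of capture, amplification and hybridization. Arrays give no counts, and their small number limits the precision. The narrower range of the tumor arrays affects every difference as deposited, and PCR amplification can favor 3′ ends.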

Additional observations from a re-analysis of the deposited data

Results flagged for a closer look

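The antisense transcript SLC38A2-AS1 had a site difference that differed between the estrogen states by −6.03 log2 units in the limma test of that difference (adjusted p = 0.0377). It was 6.60 units lower in the lymph nodes than in the primary tumors with estrogen. The difference between the states was 0.11 with its other probe set (adjusted p = 0.985), and with mouse as a fixed block it was −5.83 (adjusted p = 0.249). It was called in 2 of the 10 fits that left out 1 array.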

How the results depend on the processing

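The count of 87 called genes between sites with estrogen was 1504 on the deposited scale, 1569 with median and MAD scaling, 37 with cyclic loess, 41 with the mean of all probe sets, 20 with the second highest probe set, 135 with an intensity trend and 0 with only the 5 arrays with estrogen, where the smallest adjusted p was 0.104. Leaving out 1 array at a time gave 24 to 471. Mouse as a fixed replicate block, which rests the comparison on the pairs of mice 11 and 14, gave 27 genes, all lower in the nodes and 26 of them among the 87, and no replicate block gave 111, with all 87 among them. No filter gave 77, a filter at the median 104, robust hyperparameters 74, and probe sets chosen on the withdrawal arrays, an alternative chosen after seeing the data, 62. That choice leaves out the arrays with estrogen, and its 62 genes, 12 higher and 50 lower, were all among the 87. The test of the change with estrogen, with 1 gene, gave 2 as deposited, 2 with MAD scaling, 0 with cyclic loess, 9 with no replicate block, 0 with the fixed replicate block, 0 with no filter, 8 with a filter at the median, 0 with the second highest probe set, 14 with an intensity trend and 0 to 38 with 1 array left out. The withdrawal comparison, with 0, gave 1 with MAD scaling, 1 with an intensity trend and 0 to 1 with 1 array left out. Among the named genes called in at least 1 of the settings compared, GATA3 reversed its sign as deposited (1.56) and with MAD scaling (1.73). With the second highest probe set the signs of SLC38A2-AS1 (0.16, and 0.11 for its change with estrogen), NDRG3 (0.43), DDX28 (0.12), POLR2J4 (0.18), JAG2 (0.44) and MYCNOS (0.18) reversed. PLAU (0.21), CFAP157 (0.14), SLC1A2 (0.95), GHET1 (0.30) and CDC73 (−0.28) reversed with it too. Over all called genes, 34 of the 67 tested with their second highest probe set kept their sign. With probe sets chosen on the withdrawal arrays 82 of the 87 kept it, and 85 did as deposited, with MAD scaling and with cyclic loess. Uncalled differences changed sign too, among them CCND1 (0.89 as deposited) and ESR1 (0.17 as deposited, 0.15 without the lymph node of mouse 11). The cause was not tested. Where leaving out an array left 1 primary tumor, it was assumed to vary like the other groups.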

Other observations

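Probe sets outside the genes used showed the same pattern of high primary tumor arrays with estrogen. Of all probe sets, 134 were over 4 log2 units apart without overlap, 132 of them lower in the lymph nodes and 2 higher, and 30 of the 134 have no symbol in the annotation used here. The largest, Hs2.382121.1.S1_3p_x_at, was at 2.33, 2.61 and 2.59 in the nodes of mice 6, 11 and 14 and at 12.22 and 10.64 in the tumors of mice 11 and 14. With the second highest probe set of each gene, limma called THADA (−6.54), ATF5, a stress-responsive transcription factor (−5.99), DIAPH1, an actin-nucleating formin (−5.98), BTF3 (−4.09) and the vitamin D receptor VDR (−2.28) lower in the nodes, where the probe sets used for these genes had −0.16, 1.21, 0.21, 0.01 and 1.23 and were not called.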
